A study of Homo sapiens with 6 samples.

Results

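The 9 genes described here encode human enzymes that make, use or release glycerol 3-phosphate and its esters: the kinase GK, the dehydrogenases GPD1, GPD1L and GPD2, the acyltransferase GPAM, the lipid kinase AGK, and the phosphodiesterases GDPD1, GDPD3 and GDPD5. They were taken by symbol from a table of 19892 genes, and all 9 were found. The set was chosen by function and with the deposited values of GK and GDPD3 known, both of which stand among the lowest knockout to wild-type ratios of the table, so that every value below is a description and none is tested. RNA was sequenced from HEK293 cells, a line derived from human embryonic kidney, in 2 groups of 3 libraries: HEK293 cells in which CNBP had been knocked out with CRISPR-Cas9, and wild-type HEK293 cells. Both groups share the line and the serum-containing culture medium, no other treatment is named, and the labels say neither whether the knockout cells are 1 clone nor how many cultures the libraries stand for. CNBP encodes a zinc-knuckle protein that binds nucleic acids, and the study asks about its binding to G-rich stretches of coding sequence and about translation.

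Glycerol 3-phosphate is the backbone on which cells build phospholipids and triglycerides. GK makes it from glycerol and ATP, and GPD1 and its relative GPD1L make it in the cytosol from dihydroxyacetone phosphate, an intermediate of glycolysis. GPD2, on the inner mitochondrial membrane, oxidises it back and passes the electrons to the respiratory chain, so that the cytosolic and mitochondrial enzymes together form a shuttle for reducing equivalents. GPAM puts the first fatty acid on it. AGK phosphorylates acylglycerols in mitochondria, and the GDPD enzymes cleave glycerophosphodiesters or lysophospholipids. GK lies on the X chromosome, and its loss causes glycerol kinase deficiency in humans.

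GK and GDPD3 were the enzymes whose mRNA was lower in knockout cells by 1.5-fold or more. GK, which starts the use of free glycerol, had 20.1 FPKM in knockout cells and 48.7 FPKM in wild-type cells. GDPD3, which releases lysophosphatidic acid from lysophospholipids, had 2.23 FPKM in knockout cells and 6.19 FPKM in wild-type cells. FPKM is a level per length of transcript, fragments per kilobase of transcript scaled to the mapped fragments of a library, and the table gives 1 such value per gene and group, combined by the authors. There is therefore no spread between libraries, no standard deviation and no test for any difference, and the depth of the libraries is unknown. A gene was called higher or lower when the 2 values differed by 1.5-fold or more. Of 13219 genes compared, those above 0 in both columns with 1 FPKM or more in either, 2.78% were lower by that fold and 1.48% were higher. By any amount, 51.3% of them were lower in knockout cells. The counts for gene lists and neighbours below are to be read beside these shares. At such shares, a count of 0 called in a short list says little about that list. Of the 9 enzymes, all of which could be compared, 2 were lower and 0 higher. Since the enzymes were chosen with these values known, nothing is read from that share.

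**Figure D1:**
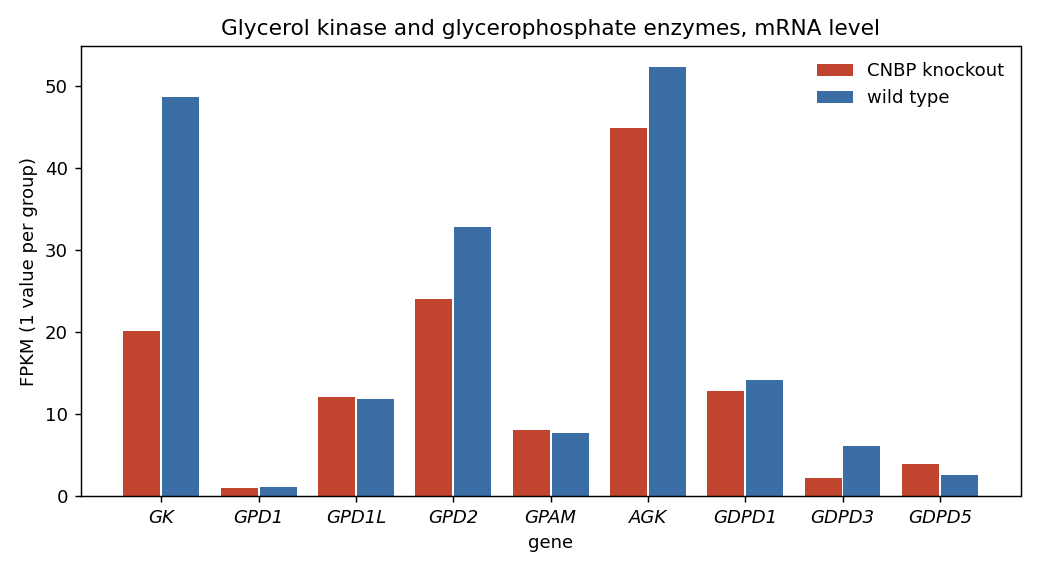
The FPKM of each of the 9 enzymes is shown as a bar for CNBP knockout cells (left of each pair) and wild-type cells (right), 1 deposited value per bar and no error bars. GK stands at 20.1 against 48.7 and GDPD3 at 2.23 against 6.19, while AGK has the highest bar in both groups.

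CNBP, the targeted gene, had 214 FPKM in knockout cells and 202 FPKM in wild-type cells. Frameshifts made by a nuclease can leave an mRNA in place, so the knockout cannot be checked from this level, and the directions given here rest on the column names. The kidney lineage markers were present at low level, with 12.7 FPKM summed over 8 genes in knockout cells and 14.4 in wild-type cells, and with LHX1 listed at 0 in both. A listed 0 in this table can be a failed estimate and shows no absence, since TIMM22, TIMM10B, AGPAT1 and MBOAT7, which cells of most kinds use, were listed at 0 in both groups too. TIMM22, AGPAT1 and MBOAT7 stand under Ensembl IDs other than those the name table gives them. Of the 6 neuronal markers, INA alone was well above 1 FPKM, at 20.5 in knockout cells and 17.0 in wild-type cells, and NEFL was listed at 0 in both. Hepatocyte markers summed over 7 genes to 0.747 FPKM in knockout and 0.561 FPKM in wild-type cells, and blood cell markers over 6 genes to 1.52 FPKM in knockout and 1.65 FPKM in wild-type cells. The 7 adipocyte markers, which bear on glycerol metabolism in fat tissue, summed to 5.04 FPKM in knockout and 5.56 FPKM in wild-type cells, and FABP4 was listed at 0 in both. LPL, at 3.07 FPKM in knockout and 3.94 FPKM in wild-type cells, made up most of that sum. These are bulk RNA values, in which fewer cells with a transcript and less of it per cell cannot be told apart.

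The coding sequences of GK and GDPD3 are shown first at the motif TGGAG, the core of the G-rich element known for CNBP binding, because these are the 2 enzymes with log2 ratios farthest from 0. Each stretch is 31 bases of the sense strand, 5′ to 3′, in coding exons, read from the longest coding sequence of the gene in GENCODE release 29 (build GRCh38), with the motif in capitals. Positions count from 1 at the A of the start codon to the first base of the motif. GK, on chromosome X, has 6 sites in 1677 coding bases:
GK position 312: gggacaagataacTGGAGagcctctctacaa
GK position 550: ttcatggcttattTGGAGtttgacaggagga
GK position 573: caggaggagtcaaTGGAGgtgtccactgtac
GK position 1293: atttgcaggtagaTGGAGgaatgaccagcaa
GK position 1432: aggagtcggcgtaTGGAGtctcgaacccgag
GK position 1469: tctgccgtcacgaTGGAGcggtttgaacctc

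GDPD3, on chromosome 16, has 8 sites in 954 coding bases, of which the first 4 lie close together, so that neighbouring stretches overlap:
GDPD3 position 144: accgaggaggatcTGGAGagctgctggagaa
GDPD3 position 155: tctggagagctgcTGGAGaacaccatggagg
GDPD3 position 167: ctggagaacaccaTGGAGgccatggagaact
GDPD3 position 176: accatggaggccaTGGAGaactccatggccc
GDPD3 position 209: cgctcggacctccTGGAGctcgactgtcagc
GDPD3 position 344: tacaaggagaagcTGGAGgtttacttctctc
GDPD3 position 404: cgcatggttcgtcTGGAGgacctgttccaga
GDPD3 position 800: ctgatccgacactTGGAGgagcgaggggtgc

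Per kilobase of coding sequence, GDPD3 had 8.39 sites and GK 3.58 sites. Among 13180 compared genes with a coding sequence, 93.1% held at least 1 TGGAG, searched on the sense strand only, and the median was 2.83 sites per kilobase, with quartiles of 1.74 and 4.11. GDPD3 had at least as many per kilobase as 98.5% of these genes and GK as 66.2% of them. GPD1, the cytosolic dehydrogenase, had 6 sites in 1047 coding bases, which is 5.73 per kilobase and at least as many as 90.4% of these genes, and its mRNA level was nearly the same in both groups, at 1.04 FPKM in knockout cells and 1.09 FPKM in wild-type cells. The other 6 enzymes had 1.58 (AGK) to 3.21 (GPD2) sites per kilobase, on both sides of the median of all genes. The share of G in the coding sequence ran from 20.3% in GDPD1 to 31.1% in GPD1, with 27.9% in GDPD3 and 24.8% in GK. A match of letters does not show binding, and binding and translation were not measured in the table.

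GK showed the largest difference in level of the 9 enzymes. Its 20.1 FPKM in knockout cells and 48.7 FPKM in wild-type cells give a log2 ratio, knockout over wild type, of -1.28, which is 2.43-fold lower. In wild-type cells GK was close to AGK, the most abundant of the 9, and in knockout cells it was below GPD2 as well. The ratio, known when the set was chosen, was the 42nd lowest of the 13219 compared genes. Of the 4700 genes whose mean FPKM lay within 2-fold of that of GK, 3 had a ratio as low, GK included, and the central 95% of their ratios ran from -0.38 to 0.34. The compared genes nearest to GK in both values were MAP4K3 and ERI2. MAP4K3, a protein kinase, had 22.6 FPKM in knockout cells and 40.6 FPKM in wild-type cells, at a distance of 0.32 over the 2 log2 values. ERI2 had 24.8 FPKM in knockout cells and 39.4 FPKM in wild-type cells, at a distance of 0.43.

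Much of the coding sequence of GK also stands in transcripts of other genes. Only its 1677 coding bases were searched, while its longest transcript is listed at 3707 bases. Of the 1628 stretches of 50 bases in its longest coding sequence, 1233 (75.7%) also stand, letter for letter, in a transcript of another gene. The processed pseudogene AL672207.1 on the X chromosome holds 1079 of them and the retrogene GK3P on chromosome 4 holds 593. AC110373.1 holds 354 and GK-AS1 holds 26. Neither AL672207.1 nor GK3P has a row in the deposited table. The sources used here do not give how reads matching several places were counted. How far reads of these copies enter the 2 values of GK was not tested. GK also overlaps the antisense gene GK-AS1 and the sense intronic genes GK-IT1 and AC112496.1, none of which has a row in the table.

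GK5, a relative of GK, was close in both groups. It had 21.6 FPKM in knockout cells and 22.6 FPKM in wild-type cells, a log2 ratio of -0.07. GK2, known from testis, was listed at 0 in both groups. GK made up 48.2% of the summed FPKM of these 3 genes in knockout cells and 68.3% in wild-type cells. As a result GK5 had the higher level of the pair in knockout cells and GK in wild-type cells. The glycerol channels AQP3, AQP7, AQP9 and AQP10 were below 1 FPKM in both groups and were not compared. TKFC, a kinase of dihydroxyacetone listed under its older symbol DAK, had 31.5 FPKM in knockout and 32.0 FPKM in wild-type cells, and AKR1B1, an aldo-keto reductase, 164 FPKM in knockout and 171 FPKM in wild-type cells. PGP, a phosphatase that acts on glycerol 3-phosphate, had 22.6 FPKM in knockout and 20.6 FPKM in wild-type cells. None of the 4 compared genes of this list was called.

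The cytosolic dehydrogenases differed little. GPD1L had 12.1 FPKM in knockout cells and 11.9 FPKM in wild-type cells, a log2 ratio of 0.03. GPD1, at 1.04 FPKM in knockout and 1.09 FPKM in wild-type cells, had a log2 ratio of -0.07. Most of the mRNA for this step thus came from GPD1L in both groups. Among 1373 genes with a mean within 2-fold of that of GPD1, the central 95% of ratios ran from -1.19 to 0.95, so that ratios at this level vary widely. Summed over GK, GPD1 and GPD1L, the enzymes that make glycerol 3-phosphate in the cytosol, the level was 33.3 FPKM in knockout cells and 61.7 FPKM in wild-type cells. GK gave 60.4% of that sum in knockout cells and 79.0% in wild-type cells, and GPD1L gave 36.4% in knockout cells and 19.3% in wild-type cells. GK5 is not in this sum; with it, the sum was 54.9 FPKM in knockout and 84.3 FPKM in wild-type cells, and GK gave 36.6% of it in knockout and 57.8% in wild-type cells.

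GPD2, the mitochondrial dehydrogenase, was lower in knockout cells without reaching 1.5-fold. It had 24.0 FPKM in knockout cells and 32.8 FPKM in wild-type cells, a log2 ratio of -0.45 (1.36-fold lower). Of 5033 genes of similar mean, 78 (1.55%) had a ratio as low, GPD2 included. Of its coding stretches of 50 bases, 5.3% were shared with another gene. Among the genes of the other route for cytosolic reducing equivalents, the malate-aspartate shuttle and the reactions that feed both, 0 of 14 were called. Of these 14, 9 were below 0 and 5 above 0, and the median log2 ratio was -0.04. Over all compared genes, 2.78% were called lower, 1.48% were called higher, and 51.3% lay below 0. The most abundant of that list were LDHB, a lactate dehydrogenase subunit, at 1721 FPKM in knockout and 1789 FPKM in wild-type cells, and the glycolytic enzyme GAPDH, at 1577 FPKM in knockout and 1481 FPKM in wild-type cells.

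GPAM, which acylates glycerol 3-phosphate at the mitochondrial outer membrane, had 8.07 FPKM in knockout cells and 7.66 FPKM in wild-type cells, a log2 ratio of 0.07. It was a minor part of the 4 genes for this reaction. AGPAT6, the older symbol of GPAT4, gave 80.5% of their summed FPKM in knockout and 78.6% in wild-type cells, and GPAM gave 8.68% in knockout and 8.47% in wild-type cells. AGPAT9, now GPAT3, had 9.76 FPKM in knockout and 11.3 FPKM in wild-type cells, and GPAT2 was below 1 FPKM in both. Of the 16 compared genes of the acylation list, 0 were called, and the median log2 ratio was -0.09. AGPAT6, at 74.8 FPKM in knockout and 71.1 FPKM in wild-type cells, and the lysophosphatidic acid acyltransferase AGPAT5, at 68.3 FPKM in knockout and 64.1 FPKM in wild-type cells, were its most abundant genes. AGPAT1 and MBOAT7 were listed at 0 in both groups.

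AGK, which is also a subunit of the TIM22 complex that inserts carrier proteins into the inner mitochondrial membrane, had 44.9 FPKM in knockout cells and 52.3 FPKM in wild-type cells. Its log2 ratio of -0.22 was reached or passed downward by 10.4% of 3994 genes of similar mean. Of 7 genes listed as its import partners, TIMM22, the channel subunit, and TIMM10B were listed at 0 in both groups and have no ratio. Among those compared, TIMM10 had 55.6 FPKM in knockout and 52.6 FPKM in wild-type cells, and TIMM8B had 46.4 FPKM in knockout and 52.6 FPKM in wild-type cells. None of the 5 compared genes of that list was called, and their median log2 ratio was -0.02. Of the AGK coding stretches of 50 bases, 6.08% were shared with other genes, most of them with AC004918.1, which overlaps it on the opposite strand. Among the 10 compared diacylglycerol and related lipid kinases, 0 were called and the median was 0.03, with DGKZ at 28.5 FPKM in knockout and 29.5 FPKM in wild-type cells and the ceramide kinase CERK at 23.8 FPKM in knockout and 23.0 FPKM in wild-type cells.

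The phosphodiesterases lay on both sides of 0. GDPD3, at 2.23 FPKM in knockout cells and 6.19 FPKM in wild-type cells, had a log2 ratio of -1.47 (2.78-fold lower), the 26th lowest of all compared genes. Like GK, GDPD3 was chosen with its values known. Of 2934 genes of similar mean, 7 had a ratio as low, GDPD3 included, and the central 95% ran from -0.71 to 0.56. GDPD1, which acts on the same kind of lipid, had 12.8 FPKM in knockout cells and 14.2 FPKM in wild-type cells, a log2 ratio of -0.15. GDPD5, a membrane protein known to cleave lipid anchors and glycerophosphocholine, had 3.93 FPKM in knockout cells and 2.63 FPKM in wild-type cells. That is a log2 ratio of 0.58 (1.49-fold), just under the fold used for a call, and 2.96% of 2671 genes of similar mean had a ratio as high. GDPD3 thus had the higher level of this pair in wild-type cells and GDPD5 in knockout cells.

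**Figure D2:**
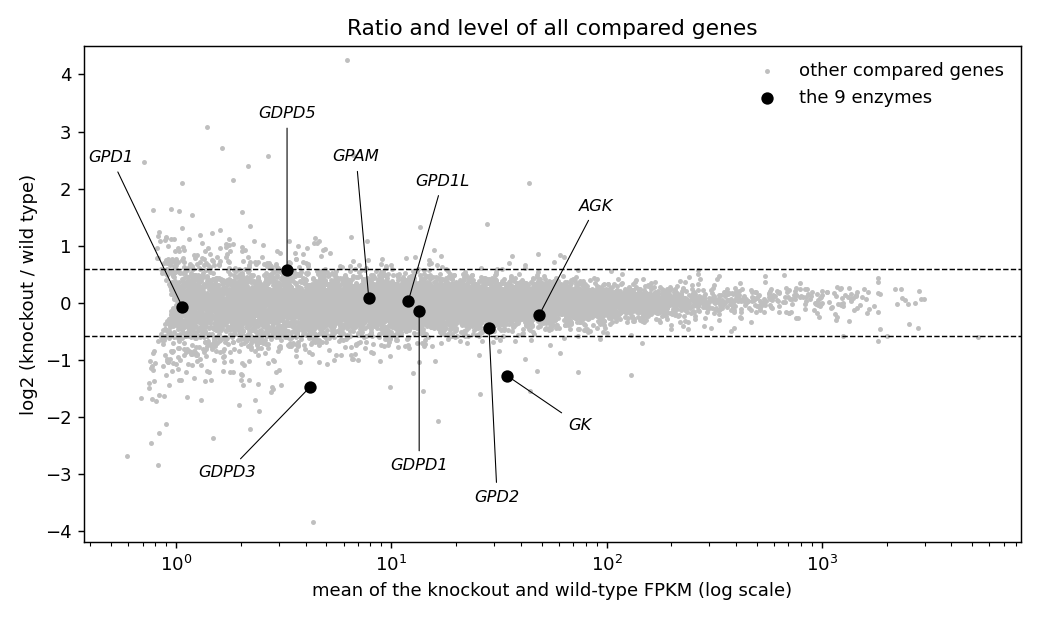
The log2 ratio of knockout over wild type (y axis) is plotted against the mean of both FPKM values (x axis, log scale) for the 13219 compared genes in grey and the 9 enzymes in black. Dashed lines mark 1.5-fold; GK (-1.28) and GDPD3 (-1.47) lie below the lower line and GDPD5 (0.58) just inside the upper one.

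GDPD3 overlaps AC012645.2 and AC012645.4 on the opposite strand, and transcripts of AC012645.4 hold 86 of the 905 stretches of 50 bases in its coding sequence (9.5%). Neither has a row in the table, and although the library kit was directional per the labels, whether the counting used strand is not stated. The compared genes nearest to GDPD3 in both values were HPGD, which breaks down prostaglandins, at 2.47 FPKM in knockout and 5.06 FPKM in wild-type cells, and KIAA0040, at 2.48 FPKM in knockout and 4.75 FPKM in wild-type cells. Their distances over the 2 log2 values were 0.33 and 0.41. Likeness over 2 values says only that the levels were close.

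Of the family as a whole, GDE1 and GPCPD1 carried most of the mRNA. GDE1, which acts on glycerophosphoinositol, had 45.6 FPKM in knockout cells and 53.4 FPKM in wild-type cells. Its log2 ratio was -0.23, and the median of its 20 nearest compared genes in gene order was -0.25. GPCPD1, which cleaves glycerophosphocholine, had 31.4 FPKM in knockout cells and 24.6 FPKM in wild-type cells. Its log2 ratio was 0.35, beside a neighbours' median of 0.04. GDPD2 and GDPD4 were below 1 FPKM in both groups. GDPD3 gave 2.31% of the summed FPKM of the 7 genes in knockout cells and 6.09% in wild-type cells, and the sum itself was 96.6 FPKM in knockout and 101.5 FPKM in wild-type cells. In the wider list of phosphodiesterases and lysophospholipases, 1 of 16 compared genes was lower and 0 higher, with a median log2 ratio of 0.03. Over all compared genes the shares were 2.78% lower and 1.48% higher. The called gene was PAFAH2, which hydrolyses platelet-activating factor and oxidised phospholipids, at 5.21 FPKM in knockout cells and 14.4 FPKM in wild-type cells (log2 ratio -1.47). In the same list PAFAH1B1, PAFAH1B2 and PAFAH1B3 had log2 ratios from 0.02 to 0.25 and were named after their values were seen.

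The compared genes that take glycerolipids further were within 1.5-fold. In triglyceride synthesis 0 of 7 compared genes were called and the median log2 ratio was 0.02. DGAT1, which adds the last fatty acid, had 21.2 FPKM in knockout and 17.8 FPKM in wild-type cells, and the phosphatidate phosphatase LPIN1 had 20.1 FPKM in knockout and 21.4 FPKM in wild-type cells. In triglyceride breakdown, a source of free glycerol inside the cell, 0 of 11 were called. There 7 were below 0 and 4 above 0, beside 51.3% below 0 over all compared genes. The median of this list was -0.20, the lowest of the 9 lists, against -0.01 over all compared genes. Its most abundant genes were the phospholipase DDHD2, at 106 FPKM in knockout and 122 FPKM in wild-type cells, and PNPLA2, the triglyceride lipase, at 36.5 FPKM in knockout and 32.7 FPKM in wild-type cells. The lowest of that list, named after its value was seen, was the lipid droplet coat gene PLIN3 at a log2 ratio of -0.53. Of 20 compared genes for phospholipid head groups 0 were called, with ETNK1, an ethanolamine kinase, at 61.9 FPKM in knockout and 66.0 FPKM in wild-type cells and the phosphatidylserine synthase PTDSS1 at 80.9 FPKM in knockout and 73.1 FPKM in wild-type cells. Over all 9 lists, 1 of 103 compared genes (0.971%) was lower and 0 were higher, beside 2.78% and 1.48% of all compared genes. Calls were rarer among genes of 5 FPKM or more in either column, where 126 of 10428 were lower and 53 higher. The lists were not counted at that level, so nothing is read from the difference.

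**Figure D3:**
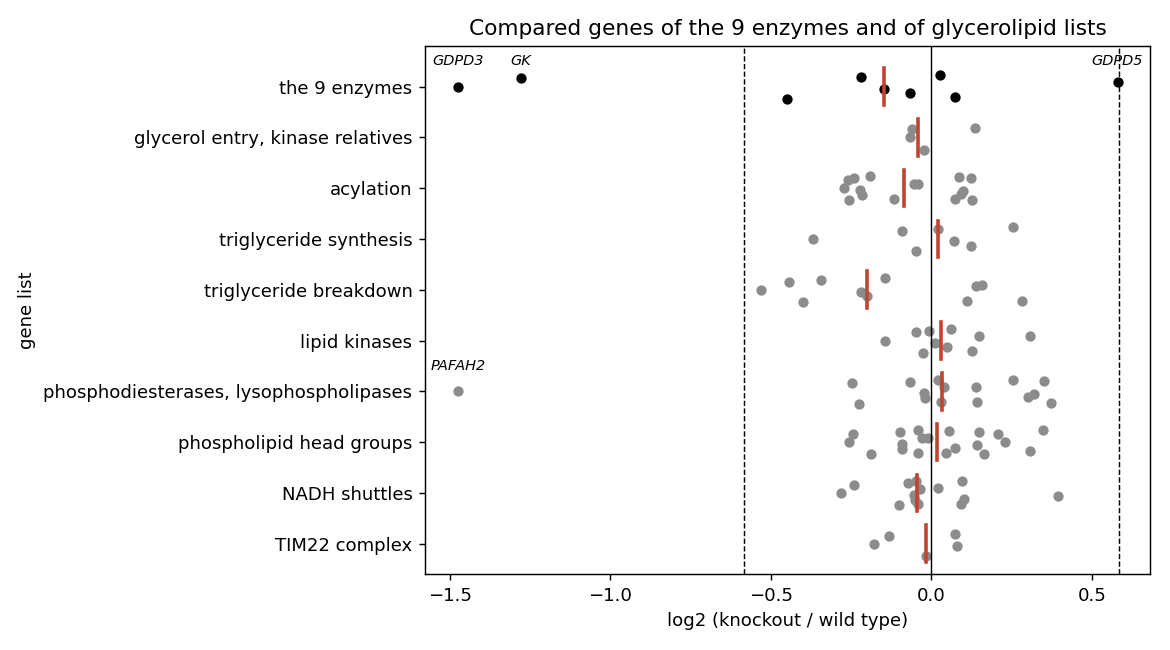
Each point is the log2 ratio of knockout over wild type of 1 compared gene, for the 9 enzymes (black, top) and the 9 other lists of glycerolipid genes (grey); red bars are medians and dashed lines mark 1.5-fold. GDPD3, GK and PAFAH2 are the points beyond the lower line, and the median of the triglyceride breakdown list is -0.20.

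Ratios differed by genome region: the median log2 ratio was -0.12 over 622 genes of chromosome 16 and -0.07 over 428 genes of the X chromosome, against -0.01 over all compared genes. Each enzyme was set beside its 20 nearest compared genes, 10 on each side in gene order. Around GK, 15 of 20 neighbours were below 0, beside 51.3% of all compared genes, and the neighbours' median was -0.15. The nearest compared genes on either side, with genes that were not compared passed over, were POLA1 and TAB3. POLA1, the DNA polymerase alpha subunit, had 40.1 FPKM in knockout and 38.9 FPKM in wild-type cells, a log2 ratio of 0.04. TAB3, a signalling adaptor, had 7.73 FPKM in knockout and 7.93 FPKM in wild-type cells, a log2 ratio of -0.04. Of the neighbours, 2 were lower by 1.5-fold: XK (log2 ratio -0.87), the fifth compared gene beyond GK, and SYTL5 (-0.72), the seventh. On that side SRPX (-0.58) and RPGR (-0.47) were lower short of that fold, and DMD (0.09) alone was above 0. Set against the neighbours' median, the log2 ratio of GK was -1.13. Around GDPD3, 14 of 20 neighbours were below 0 and the median was -0.07. On either side of GDPD3 the nearest compared genes were YPEL3 at -0.01 and MAPK3, a mitogen-activated kinase, at -0.21. None of its neighbours was lower by 1.5-fold and 2 were higher, BOLA2B (log2 ratio 0.62) and MYLPF (0.64), each below 1.5 FPKM in both groups. Against the neighbours' median GDPD3 stood at -1.41. The neighbours of the other 7 enzymes had medians from -0.11 (GPD1L) to 0.03 (GPD2), and taking these off left GPD2 at -0.48 and GDPD5 at 0.58. The neighbours named here were chosen for their place or after their values were seen.

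**Figure D4:**
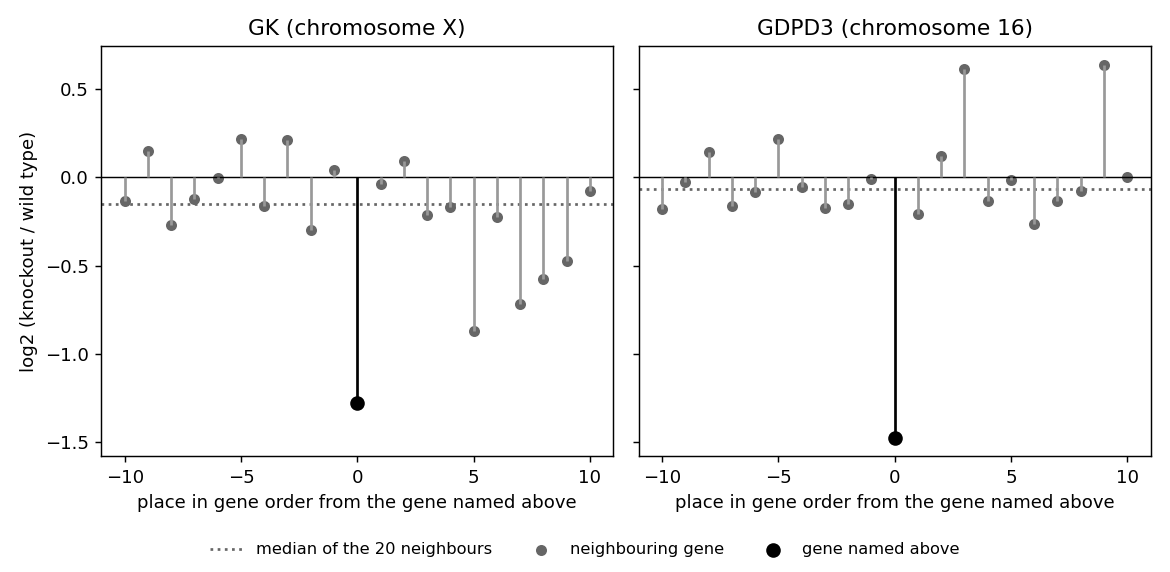
The log2 ratio of knockout over wild type is shown for GK (left) and GDPD3 (right), in black, and for their 20 nearest compared genes in grey, by place in gene order. The dotted line is the neighbours' median, -0.15 around GK and -0.07 around GDPD3, and the lowest neighbour of GK is XK at -0.87.

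By level, the order in knockout cells was AGK, GPD2, GK, GDPD1, GPD1L, GPAM, GDPD5, GDPD3 and GPD1. In wild-type cells AGK was followed by GK, GPD2, GDPD1, GPD1L, GPAM, GDPD3, GDPD5 and GPD1. The orders differ in the places of GK with GPD2 and of GDPD3 with GDPD5. Whether neighbours in these orders differ beyond the spread between libraries was not tested, since the table gives none. Of the 9 enzymes, 5 lay within 1.2-fold, as did 78.2% of all compared genes.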

How the data were processed

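Total RNA of 3 CNBP knockout and 3 wild-type HEK293 libraries was sequenced by the authors from directional libraries, per the labels' protocols. The submitters' processing notes name TopHat, Cufflinks, Cuffdiff and the build hg19, and no versions. The values used are FPKM per gene, deposited by the authors as 1 value per group. The header names no unit: FPKM was taken from the tools and from column sums of 612941 (knockout) and 612366 (wild type). Among 948 genes between 0 and 0.1 FPKM in both columns, ratios formed no steps of whole reads (at most 26 in any bin of 0.03 log2), so depth was not recovered.

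Log2 ratios were knockout over wild type, with no pseudocount, and a call was a fold of 1.5. The name table held the Ensembl IDs of 19130 of 19892 genes, and 26 symbols turned into dates were restored from it. All 127 genes of 9 pathway lists were found. Gene order, overlaps and coding sequences came from GENCODE release 29 (GRCh38), another build than hg19, so no coordinates are given. Of 13219 compared genes, 13184 were placed in gene order. The members and lists were chosen with earlier results of these data known. Genes named are the 9 enzymes, CNBP, up to 4 called or else the 2 most abundant genes of each list, the 2 genes nearest to GK and to GDPD3, and overlapping genes. Some genes were named outside this rule, after their values were seen. They were relatives of the enzymes in the same reaction or family, genes listed at 0 and genes below 1 FPKM. PLIN3, ABHD5, PGP, the PAFAH1B genes and neighbours in the genome were named in this way too. The fold call and the neighbours' median were run on simulated columns with planted shifts, which they recovered. The simulated noise was far smaller than the spread of the real ratios. That run checks the code only and does not show how calls fare on real values. The other steps were not tested in this way. Python 3.11.15, numpy 2.4.6, pandas 2.3.3 and matplotlib 3.10.9 were used.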

Additional observations from a re-analysis of the deposited data

How the results depend on the processing

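The calls of GK and GDPD3 held under every alternative run, which were pseudocounts of 1 and 0.1, the median of all compared genes taken off, and the median of the 20 nearest genes taken off, with log2 ratios from -1.27 to -1.13 for GK and from -1.47 to -1.16 for GDPD3. GDPD5 passed 1.5-fold (log2 ratio 0.59) with the median of all genes taken off, which gave 1 enzyme higher. No enzyme's ratio changed sign in 36 alternative values. Pseudocounts cannot change a sign, and the median of all compared genes (-0.00638) was nearer 0 than every enzyme's ratio. Only taking off the neighbours' medians could thus have changed one. The 36 alternative list medians moved by at most 0.06. Of all compared genes, 368 were lower and 196 higher; 126 were lower and 53 higher when 5 FPKM or more was required in either column, 1141 and 945 with no minimum, 141 and 74 with a pseudocount of 1, and 90 and 45 at a 2-fold threshold. By construction these rules admit fewer or more genes or shrink the ratios of low ones. No paired analysis was possible because the table gives 1 value per group, and for the same reason no library could be left out. The depth is unknown, so the counting error of low values such as those of GPD1 and GDPD3 cannot be given.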
